A study of Artemisia argyi with 3 samples.

Results

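The unigenes described here encode the middle enzymes of the methylerythritol phosphate (MEP) pathway in *Artemisia argyi*, a mugwort whose leaves are used for moxibustion. They are 5 of the 88,591 unigenes in the expression table, taken from those that the study assigned by sequence annotation to CMS (CL7571.Contig1_All), CMK (CL10359.Contig1_All and CL9769.Contig2_All) and MCS (CL5260.Contig1_All and CL5260.Contig2_All). The study assigned further unigenes to each of these enzymes, so that the 5 do not give the whole level of an enzyme. The enzyme names follow the identifiers printed in the study's pathway drawing. Whether its identifiers stand in the same order as its rows was not settled, so the assignment of single contigs is uncertain, while each value here belongs to its identifier in the table. The suffix _All, which every identifier carries, is left out from here on. A unigene is a non-redundant sequence of the de novo assembly, and contigs with the same CL number belong to 1 cluster of similar sequences. Leaf, root and stem tissue of mature plants was sequenced, with the tissue of 5 plants pooled into 1 library per tissue. There is therefore 1 value per unigene and tissue, no spread between replicates is known, and no test between tissues was possible. The 3 comparisons below set leaf against root, leaf against stem and root against stem, share libraries with each other, and compare libraries only.

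The MEP pathway runs in plastids and makes isopentenyl and dimethylallyl diphosphate, the building blocks of monoterpenes, carotenoids and the side chain of chlorophyll. After DXS and DXR have made methylerythritol phosphate from pyruvate and glyceraldehyde phosphate, CMS couples it to a cytidyl group taken from CTP. CMK then adds a phosphate from ATP, and MCS closes the ring while releasing CMP, which gives the cyclodiphosphate that HDS and HDR convert to the end products. In *Escherichia coli* the corresponding enzymes are known as IspD, IspE and IspF.

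Values are fragments corrected for unigene length and library size (FPKM), a scale on which levels of different unigenes in 1 library can be set side by side. The table sums to 745,319 FPKM in leaf, against 684,729 in root and 732,443 in stem, and the most abundant unigene holds 0.609% of the leaf sum, 2.96% of the root sum and 0.388% of the stem sum. Relative depth was read from unigenes at 0.2 to 0.5 FPKM in both libraries of a pair, whose values come from few fragments. The most frequent ratio put root at 1.06 times and stem at 1.01 times the depth of leaf. This is an indirect estimate, and the clean read numbers that the study reports were nearly equal across tissues. The number of fragments behind a single value is not known, so no counting interval is given. Because the table pairs no unigene with a gene name, the tissue labels were not checked against marker genes. In bulk tissue, fewer cells of a type and less RNA per cell cannot be told apart.

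Levels differed widely among the 5 unigenes, and 3 of them were above 1 FPKM in all 3 tissues, as were 27.7% of all unigenes. CL5260.Contig2 (MCS) was by far the most abundant in every tissue. CL7571.Contig1 (CMS) and CL10359.Contig1 (CMK) were lower in every tissue and had their highest value in leaf. CL5260.Contig2 was 5.12 times CL7571.Contig1 in leaf, against 95.1 times in root and 10.2 times in stem. It was 6.31 times CL10359.Contig1 in leaf, beside 65.6 times in root and 17.2 times in stem. CL5260.Contig1 (MCS) and CL9769.Contig2 (CMK) stayed below 3 FPKM everywhere.

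**Figure D1:**
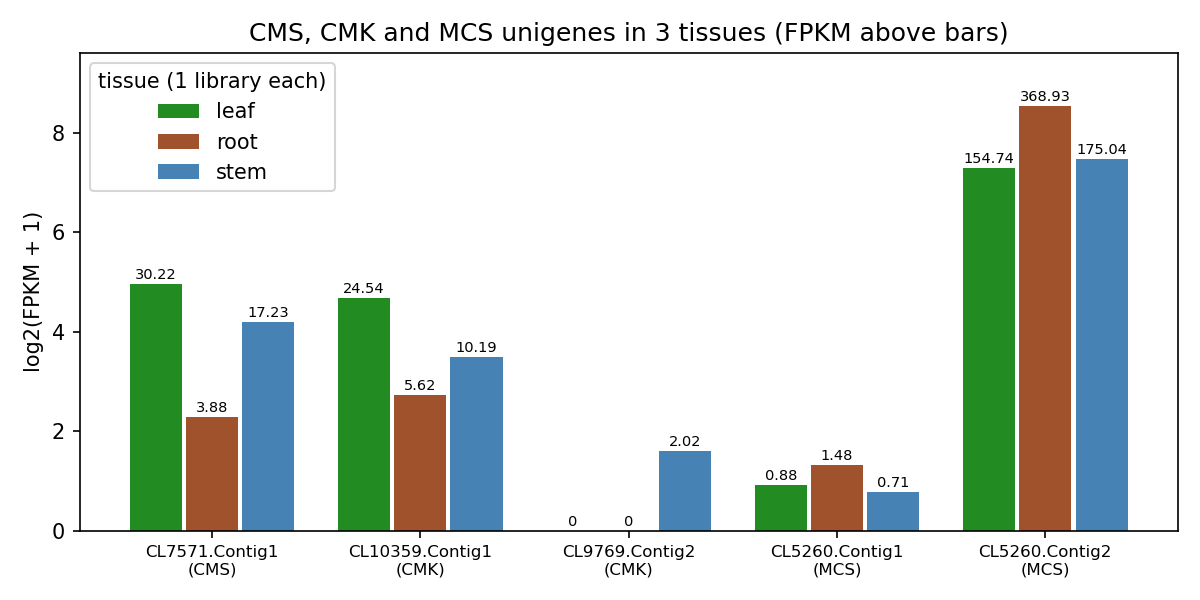
Expression of the 5 CMS, CMK and MCS unigenes as log2(FPKM + 1) in 1 library each of leaf, root and stem, with the FPKM value above each bar. The CMS unigene and CL10359.Contig1 have their tallest bar in leaf, CL5260.Contig2 has its tallest in root with 368.93 FPKM, and CL9769.Contig2 has a bar in stem alone.

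CMS, the enzyme that adds the cytidyl group, was represented by CL7571.Contig1, with 30.2 FPKM in leaf, against 3.88 in root and 17.2 in stem. Leaf was thus 7.79 times root and 1.75 times stem, and root was 0.225 times stem. Among all unigenes it ranked 4277th in leaf, 17,021st in root and 7497th in stem, above 95.2%, 80.8% and 91.5% of the table. Leaf held 58.9% of the sum of its 3 values, root 7.56% and stem 33.6%. The order leaf, stem, root is a common one, found in 8326 (34.0%) of the 24,505 unigenes above 1 FPKM in all 3 tissues.

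The size of the leaf to root ratio of CL7571.Contig1 was less common than its order. On the scale of FPKM + 1 the log2 ratio was 2.68, and 97.1% of the 26,104 unigenes above 1 FPKM in both tissues had a lower one. The log2 ratio of leaf to stem was 0.78, above 79.5% of the 30,969 unigenes expressed in both. The log2 ratio of root to stem was -1.90, and 5.20% of 28,565 unigenes had a lower one. Adding 1 FPKM shrinks the ratios of low unigenes most. Shares on this scale, here and below, can therefore lie further out for abundant unigenes.

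CMK, the kinase that follows, had CL10359.Contig1 at 24.5 FPKM in leaf, beside 5.62 in root and 10.2 in stem. Its leaf value was 4.37 times the root value and 2.41 times the stem value, and the root value was 0.552 times the stem value. The ranks were 5187 in leaf, against 13,196 in root and 11,393 in stem. Leaf held 60.8% of its 3-tissue sum, root 13.9% and stem 25.3%, so its leaf share was close to that of the CMS unigene while its root share was larger. The log2 ratios on the scale of FPKM + 1 were 1.95 for leaf over root, 1.19 for leaf over stem and -0.76 for root over stem. Lower ratios were found for 92.9%, 89.4% and 32.4% of the unigenes above 1 FPKM in both tissues of the pair. Its root to stem ratio was therefore well inside the bulk of the distribution, unlike that of CMS.

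CL9769.Contig2, also assigned to CMK, was listed at 0 in leaf and in root and had 2.02 FPKM in stem, where it ranked 31,315th. No fold is given against a listed 0. Of all unigenes, 3.42% shared this pattern of 0 in leaf and root and more than 1 FPKM in stem. Of the 12.2 FPKM that these CMK unigenes had together in stem, 10.2 came from CL10359.Contig1.

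MCS, the cyclase, was represented mainly by CL5260.Contig2, with 155 FPKM in leaf, against 369 in root and 175 in stem. The leaf value was 0.419 times the root value and 0.884 times the stem value, and root was 2.11 times stem. It ranked 768th in leaf, 222nd in root and 611th in stem, above 99.1%, 99.7% and 99.3% of the table. It was among the 527 unigenes, or 0.595% of the table, above 100 FPKM in all 3 tissues. Its order of root, stem, leaf occurred in 10.1% of the 24,505 unigenes expressed in all 3 tissues, and 17.4% of them were highest in root.

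The log2 ratios of CL5260.Contig2 on the scale of FPKM + 1 were -1.25 for leaf over root, -0.18 for leaf over stem and 1.07 for root over stem. Against root, 7.70% of the unigenes expressed in both tissues had a lower leaf ratio. For leaf over stem the share was 36.0%, near the middle of the distribution, and for root over stem it was 94.1%. The MCS unigene thus lay on the opposite side of the distribution from the CMS and CMK unigenes in each comparison. In leaf over stem the shares were 36.0% for MCS, against 79.5% for CMS and 89.4% for CMK.

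**Figure D2:**
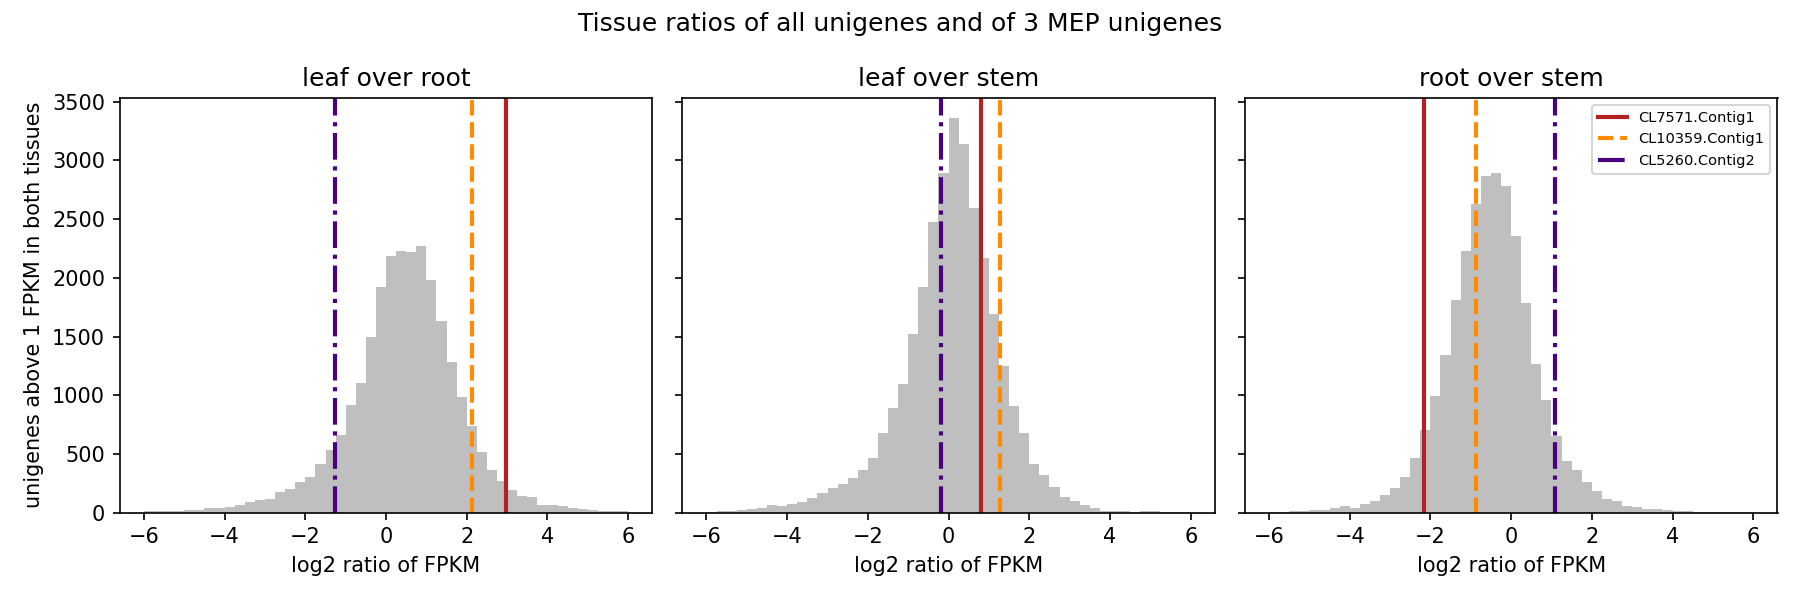
Number of unigenes (y axis) in bins of the log2 ratio of FPKM (x axis, no pseudocount) for leaf over root, leaf over stem and root over stem, for unigenes exceeding 1 FPKM in each of the pair, with 3 vertical lines for CL7571.Contig1 (CMS), CL10359.Contig1 (CMK) and CL5260.Contig2 (MCS). In leaf over root the CMS and CMK lines lie in the right tail and the MCS line in the left tail, and in leaf over stem all 3 lie closer to the centre.

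CL5260.Contig1, also assigned to MCS, was low, with 0.88 FPKM in leaf, beside 1.48 in root and 0.71 in stem. Like CL5260.Contig2 it was highest in root, but leaf came before stem. CL5260.Contig2 was 176 times as abundant as CL5260.Contig1 in leaf, against 249 times in root and 247 times in stem. The log2 ratios of CL5260.Contig1 were -0.40 for leaf over root, 0.14 for leaf over stem and 0.54 for root over stem. At these levels the added 1 FPKM shrinks the ratios, and without it root over stem was 2.08-fold.

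Counted at a 2-fold threshold on the scale of FPKM + 1, 2 of the 5 unigenes were higher in leaf than in root, CL7571.Contig1 and CL10359.Contig1, and 1 was lower, CL5260.Contig2. The shares over all unigenes were 20.2% higher and 18.0% lower. Against stem, 1 of the 5 was higher in leaf, CL10359.Contig1, where 12.3% of all unigenes were. CL9769.Contig2, listed at 0 in leaf, was the 1 unigene counted as lower, beside 16.5% of all unigenes. In root over stem, CL5260.Contig2 was the 1 unigene higher, beside 14.2% of all unigenes. CL7571.Contig1 and CL9769.Contig2, which is listed at 0 in root, were the 2 lower, beside 19.8%. Among the 3 unigenes above 1 FPKM in every tissue, taken without a pseudocount, 2 were higher and 1 lower in leaf over root, 1 and 0 in leaf over stem, and 1 and 1 in root over stem. The shares over all unigenes expressed in both tissues of a pair were then 32.9% higher and 12.2% lower for leaf over root, 19.1% and 16.1% for leaf over stem, and 8.34% and 30.3% for root over stem. Given the small number of unigenes, nothing is read from the distance between these counts and the shares.

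The median log2 ratio over the 5 unigenes was 0 for leaf over root, 0.14 for leaf over stem and -0.76 for root over stem, beside 0.02, 0 and -0.24 over all unigenes. The first of these medians is the value of CL9769.Contig2, listed at 0 in both tissues, and says little of the others, whose ratios run from -1.25 to 2.68.

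The balance between the steps differed from tissue to tissue, and it is given here for the 5 unigenes alone. Within a library this balance does not depend on how libraries are scaled. Summed over those of the 5 that belong to each enzyme, MCS was 5.15 times CMS in leaf, against 95.5 times in root and 10.2 times in stem. MCS was 6.34 times CMK in leaf, beside 65.9 times in root and 14.4 times in stem. CMK was 0.812 times CMS in leaf, against 1.45 times in root and 0.709 times in stem. Sums over all contigs of the 4 clusters, the enzyme of whose other contigs is not given in the sources used here, changed these ratios. CL9769 alone has 15 contigs, more than the study assigned to CMK. The sum of CL10359 and CL9769, used here in place of CMK, therefore holds contigs that the study did not assign to CMK. With cluster sums MCS was 4.15 times CMS in leaf, against 62.9 times in root and 8.96 times in stem. MCS over the sum of CL10359 and CL9769 was 2.38 in leaf, beside 13.5 in root and 3.54 in stem. That sum over CMS was 1.75 in leaf, beside 4.64 in root and 2.53 in stem. Root had the highest of the 3 values in each ratio with either sum. Among the 5 unigenes, MCS made up 74.0% of the summed FPKM in leaf, against 97.5% in root and 85.7% in stem. The sum of the 5 was 210 FPKM in leaf, beside 380 in root and 205 in stem, of which CL5260.Contig2 made up 369 in root.

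The other genes of the pathway were taken from the 7 unigenes that the study cloned, of which 4 belong to the MEP pathway (DXS, DXR, HDS and HDR) and 3 to the mevalonate pathway of the cytosol (2 HMGR, the reductase that makes mevalonate, and MVD, the decarboxylase that ends it). At the same threshold 2 of these 7 were higher in leaf than in root, CL1159.Contig3 (DXR) and Unigene5791 (HDS), and 2 were lower, both HMGR. Against stem 0 were higher in leaf and 2 were lower, CL11002.Contig1 (HMGR) and Unigene11038 (DXS). In root over stem 1 was higher, CL11002.Contig2 (HMGR), and 4 were lower. The shares over all unigenes were 20.2% higher and 18.0% lower for leaf over root. They were 12.3% and 16.5% for leaf over stem, and 14.2% and 19.8% for root over stem. With 7 unigenes, nothing is read from the distance to these shares. With TPM, median-ratio or upper-quartile scaling 1 of the 7 was higher in leaf than in root. With median-ratio and with upper-quartile scaling 2 were lower in root over stem, and with the last of these 1 was higher in leaf than in stem. These 7 were chosen by the study for cloning and are not a sample of the pathway.

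The 4 MEP unigenes among them were set in reaction order with the more abundant unigene of each middle step, a choice made after the values were seen. The study assigned further unigenes to each of these 7 enzymes, so a single unigene does not give the tissue pattern of its enzyme. CL5260.Contig2 (MCS) was the most abundant of these 7 in all 3 tissues, with 39.7% of their summed FPKM in leaf, against 85.8% in root and 44.8% in stem. CL7571.Contig1 (CMS) was 3rd of 7 in leaf, 6th in root and 5th in stem. CL10359.Contig1 (CMK) was 4th in leaf and root and 6th in stem.

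The cloned unigene of HDS, the enzyme that takes up the product of MCS, did not share the root maximum of CL5260.Contig2. Unigene5791 (HDS) had 142 FPKM in leaf, against 32.4 in root and 70.6 in stem, with leaf 4.39 times root and 2.01 times stem. These ratios are close to the 4.37 and 2.41 of CL10359.Contig1, although HDS was several times more abundant. DXR, the enzyme before CMS, had CL1159.Contig3 at 11.02 FPKM in leaf, beside 4.83 in root and 5.75 in stem, and leaf was 2.28 times root. The unigenes shown for CMS, CMK, HDS and DXR thus had the same order of tissues in FPKM, with 51.0% to 60.8% of the 3-tissue sum in leaf. Root and stem changed places for that of DXR with median-ratio and upper-quartile scaling.

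The cloned unigenes of DXS and HDR, at the ends of the chain, were highest in stem. Unigene11038 (DXS) had 4.16 FPKM in leaf, against 2.01 in root and 71.8 in stem, and CL1787.Contig4 (HDR) had 23.4, 12.2 and 40.3 FPKM in the same order. Of the 7 unigenes in reaction order, that of MCS was the 1 highest in root. A root maximum was found for 17.4% of the 24,505 unigenes that passed 1 FPKM in every tissue. A count of 1 in 7 is therefore not set apart from that share.

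**Figure D3:**
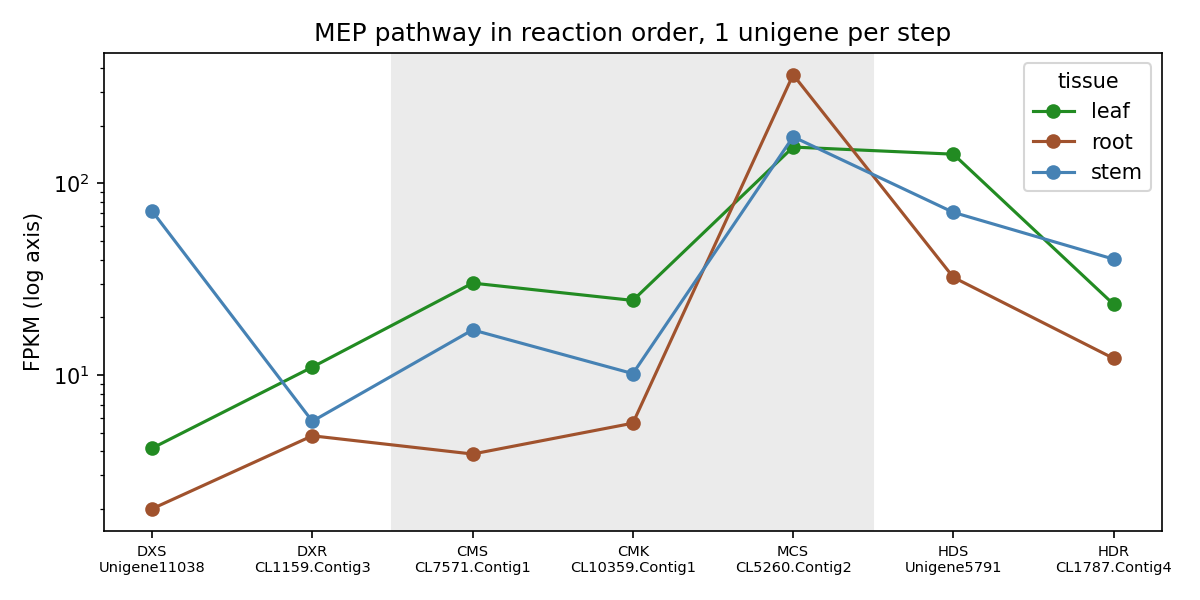
FPKM (log axis) of 1 unigene per step of the MEP pathway in reaction order from DXS to HDR, with a line for each of leaf, root and stem and the middle steps shaded. The root line is the lowest at 6 of the 7 steps (5 with median-ratio or upper-quartile scaling, where stem is lowest at DXR) and the highest at MCS. A root minimum is common in FPKM. Of the 24,505 unigenes above 1 FPKM in all 3 tissues, 34.0% had the order leaf, stem, root and 21.4% the order stem, leaf, root.

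The cluster mates of the 5 unigenes were then examined, since the estimation of FPKM divides fragments that match several contigs of a cluster, and the enzyme of the mates is not taken from any annotation here. In CL7571, with 3 contigs, CL7571.Contig1 led in every tissue, with 78.0% of the cluster sum in leaf, against 65.5% in root and 87.6% in stem. CL7571.Contig2 had 7.89 FPKM in leaf, beside 0.86 in root and 1.91 in stem, the same order of tissues with a leaf to stem ratio of 4.13. CL7571.Contig3 had 0.65, 1.18 and 0.52 FPKM and was highest in root. The whole cluster had 38.8 FPKM in leaf, against 5.92 in root and 19.7 in stem, with log2 ratios of 2.52 for leaf over root, 0.94 for leaf over stem and -1.58 for root over stem.

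CL10359 had 2 contigs, both highest in leaf. CL10359.Contig2 had 16.3 FPKM in leaf, against 4.2 in root and 8.27 in stem, and CL10359.Contig1 held 60.1% of the cluster sum in leaf, beside 57.2% in root and 55.2% in stem. The division between these contigs was nearly the same in the 3 tissues. The cluster sum was 40.9 FPKM in leaf, against 9.82 in root and 18.5 in stem, with log2 ratios of 1.95, 1.11 and -0.85 for the 3 comparisons.

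In CL5260, with 3 contigs, CL5260.Contig2 held 96.2% of the sum in leaf, against 99.1% in root and 99.4% in stem. The remaining contig, CL5260.Contig3, had 5.21 FPKM in leaf, beside 1.8 in root and 0.42 in stem, a leaf to stem ratio of 12.4, and was highest in leaf, where CL5260.Contig2 was lowest. CL5260.Contig1 held 0.547% of the sum in leaf, against 0.398% in root and 0.403% in stem. A leading contig with at least 95% in all 3 tissues was found in 6.79% of the 3285 clusters that had 2 or more contigs and a sum of at least 10 FPKM in each tissue. The median share of the leading contig over these clusters was 56.2% in leaf, against 56.4% in root and 56.1% in stem, close to that of CL10359.Contig1.

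CL9769 was unlike the other clusters in having 15 contigs and no dominant one. Such large clusters are rare, with 74 of 12,950 reaching 15 contigs, or 0.571%. The cluster summed to 26.8 FPKM in leaf, beside 17.7 in root and 31.2 in stem. Its leading contig differed between tissues, CL9769.Contig10 with 14.3% of the sum in leaf, CL9769.Contig13 with 14.8% in root and CL9769.Contig8 with 21.9% in stem. The same contig led in all 3 tissues in 68.4% of the 3285 clusters, as it did in CL7571, CL10359 and CL5260.

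Within CL9769, CL9769.Contig2 was 7th of 15 in stem, with 6.47% of the cluster sum. It was 1 of 3 contigs listed at 0 in leaf, beside CL9769.Contig1, with 0.46 FPKM in root and 1.28 in stem, and CL9769.Contig3, with 0.32 and 2.48 FPKM. These 3 summed to 0 FPKM in leaf, against 0.78 in root and 5.78 in stem. The other 12 contigs summed to 26.8, 16.9 and 25.5 FPKM, and 9 of the 12 were highest in leaf. That number was 7 with upper-quartile and 5 with median-ratio scaling. A leaf maximum is common in FPKM, with a share of 46.1% among the 24,505 unigenes that passed 1 FPKM in every tissue. Some of the 12, such as CL9769.Contig9 with 0.6 FPKM in leaf, are outside that set. The highest values of the cluster in stem were 6.83 FPKM for CL9769.Contig8 and 4.66 FPKM for CL9769.Contig9. The grouping by a listed 0 in leaf was made after the values were seen.

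**Figure D4:**
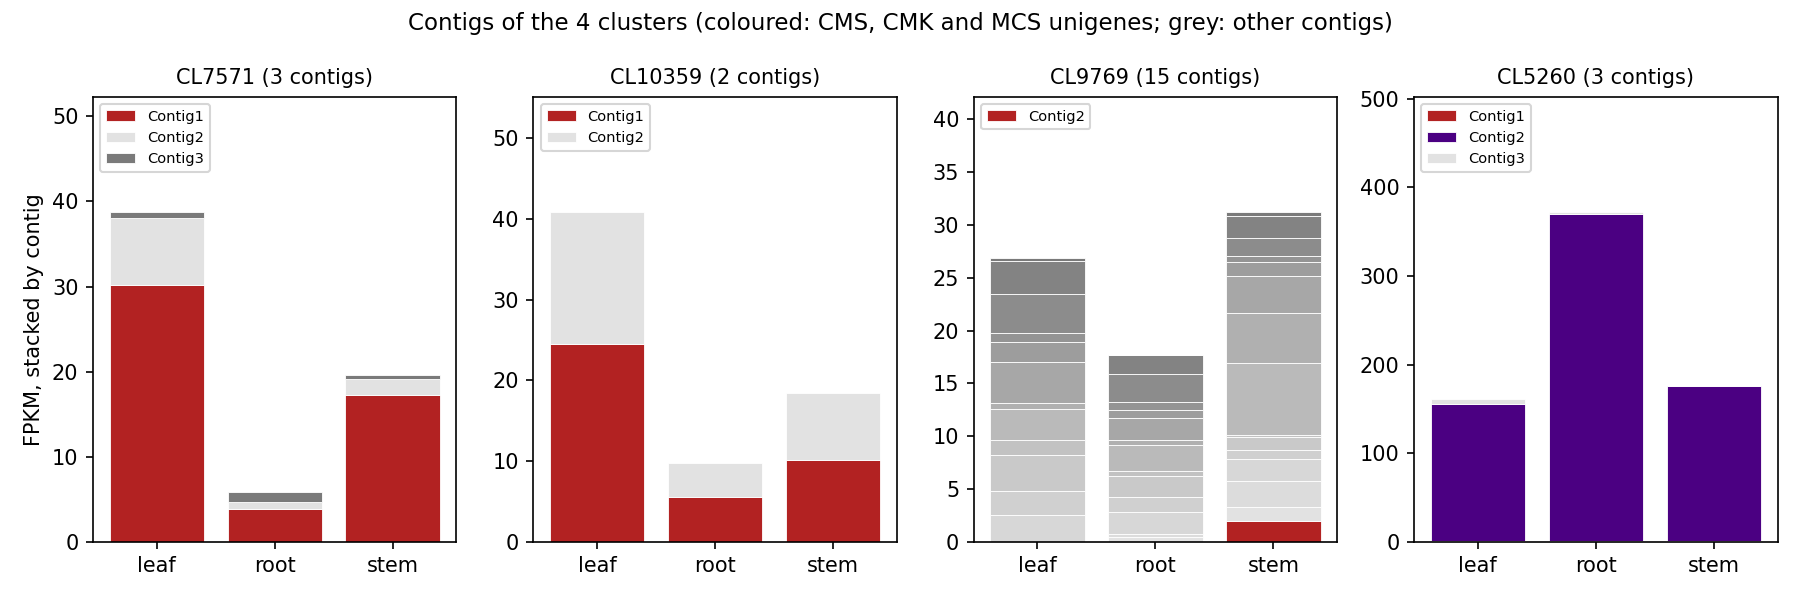
FPKM of every contig of clusters CL7571, CL10359, CL9769 and CL5260, stacked, in leaf, root and stem, each cluster on its own y axis, with the CMS, CMK and MCS unigenes coloured and other contigs in grey. CL5260 is almost entirely CL5260.Contig2, CL10359 is split in nearly the same way in each tissue, and CL9769.Contig2 is a small part of a cluster of 15 contigs, seen in stem alone.

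Unigenes of similar pattern were sought among 24,488 others above 1 FPKM in all 3 tissues, by the largest of the 3 absolute differences in log2(FPKM + 1). The closest to CL7571.Contig1 was Unigene832, with 29.96 FPKM in leaf, against 3.99 in root and 17.2 in stem, at most 0.03 apart, and 98 unigenes lay within 0.5 in every tissue. The closest to CL10359.Contig1 was Unigene3268, with 24.4, 5.67 and 10.6 FPKM, at most 0.05 apart, and 324 lay within 0.5. The closest to CL5260.Contig2 was CL3367.Contig2, with 156, 377 and 167 FPKM, at most 0.07 apart, and 23 lay within 0.5. The measure depends on level as well as on the pattern across tissues, and few unigenes are as abundant as this one. For the low CL5260.Contig1 the closest was Unigene1631, with 1.02, 1.92 and 1.01 FPKM, at most 0.24 apart. For CL9769.Contig2 no unigene came within 0.5, because the search was limited to unigenes above 1 FPKM everywhere, and the closest, CL1734.Contig4, was up to 1.01 apart. The likeness rests on 3 values per unigene, and the table gives these unigenes no name.

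The scaling of the libraries bears on every ratio that includes root. Median-ratio scaling shifts all log2 ratios taken without a pseudocount by -0.64 for leaf over root, -0.02 for leaf over stem and 0.62 for root over stem. With it the log2 ratio of leaf over root was 2.12 for CL7571.Contig1, 1.37 for CL10359.Contig1 and -1.89 for CL5260.Contig2. The root over stem ratio of CL10359.Contig1 was -0.21 and that of CL7571.Contig1 -1.37, while that of CL5260.Contig2 was 1.69. Each of the 5 unigenes kept its order of tissues with TPM, median-ratio and upper-quartile scaling, though CL9769.Contig2, listed at 0 in leaf and root, has no order between those tissues. The sums of CL7571 and CL10359 kept theirs as well. With upper-quartile scaling the CL5260 sum was 153.4 in leaf and 153.2 in stem, so that these tissues changed places. With median-ratio scaling the CL9769 sum was 22.8 in leaf and 23.4 in root, which also changed places.

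**Figure D5:**
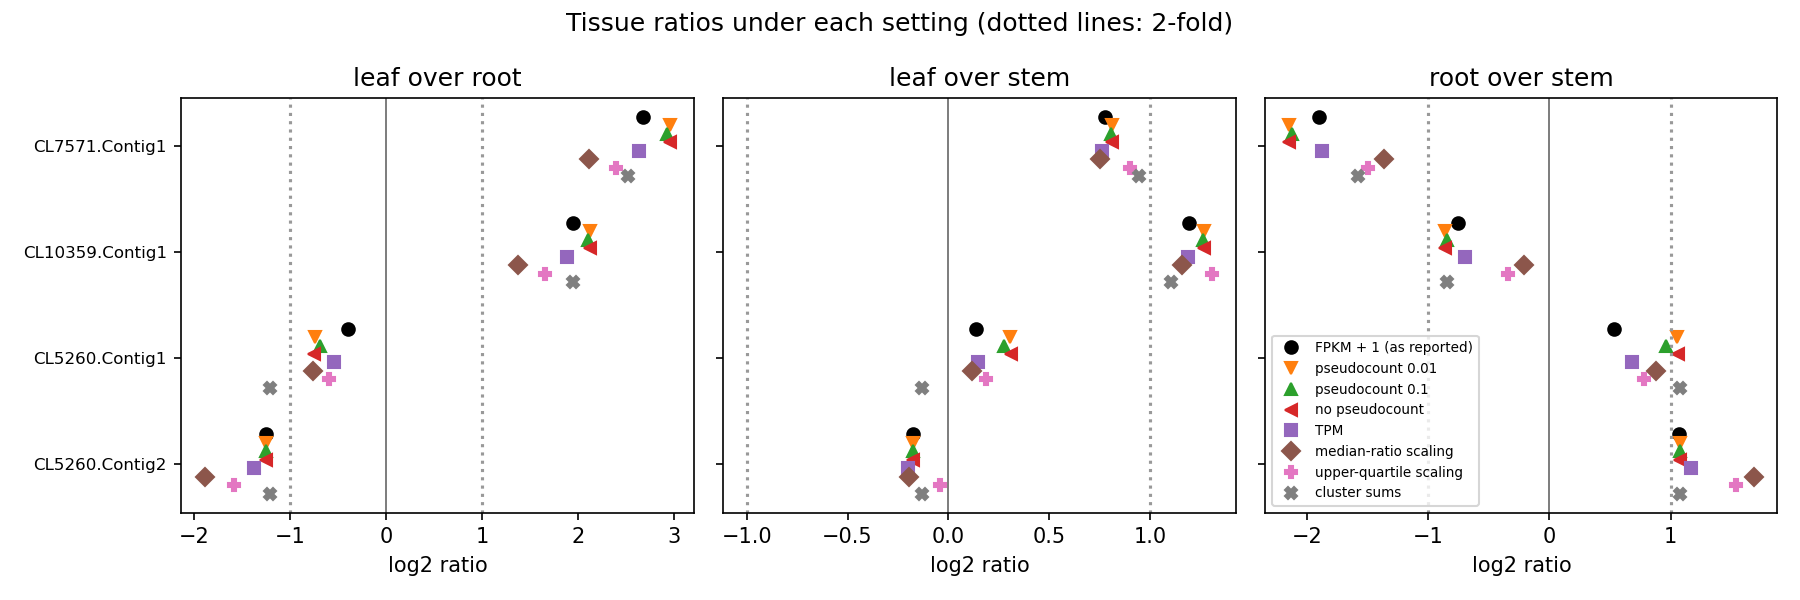
Log2 ratio (x axis) of CL7571.Contig1, CL10359.Contig1, CL5260.Contig1 and CL5260.Contig2 (rows) for leaf over root, leaf over stem and root over stem under each pseudocount, scaling and cluster sum tried, with dotted lines at 2-fold. Leaf over root stays beyond the dotted line on the right for CMS and CMK and on the left for CL5260.Contig2, and CL5260.Contig1 crosses a line for some settings. The cluster sum marker shows the ratio of the whole cluster, so it is the same for both contigs of CL5260.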

How the data were processed

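RNA of leaf, root and stem was sequenced as 1 library per tissue. The authors filtered the reads, built unigenes de novo (Trinity, then TGICL), aligned the reads back with Bowtie2 and derived expression with RSEM. The values the authors deposited are FPKM, with 2 decimals, for 88,591 unigenes. FPKM of a library is relative to its own total, so abundant unigenes lower all others, and RSEM divides fragments shared by contigs, which makes single contigs less certain than cluster sums.

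From the FPKM were computed ranks, shares, ratios with 1 added before log2, counts at 2-fold and cluster sums. No test was run, since each tissue has 1 library, and ratios carry no p-value. Alternatives were other pseudocounts, TPM (each library rescaled to a sum of 1,000,000), median-ratio and upper-quartile scaling, other fold thresholds and cluster sums.

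The unigenes and lists were chosen with earlier results of these data known. Named unigenes are the 5 described, the other contigs of their 4 clusters, the 7 cloned ones, and for each of the 5 the nearest unigene in pattern. The fold calls were tested on simulated data with counting noise alone, where all 200 unigenes raised 4-fold in leaf were called. It raised no unigene of low level and used no fold near the threshold. Spread between plants was not simulated either, so the check does not bear on single calls here. Sequences were not used here. The software was Python 3.11.15 with the packages pandas 2.3.3, numpy 2.4.6, matplotlib 3.10.9 and scipy 1.17.1.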

Additional observations from a re-analysis of the deposited data

How the results depend on the processing

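Of 84 recomputed log2 ratios, 80 kept their side of the 2-fold threshold, and none with a 2-fold call changed sign. CL9769.Contig2, listed at 0 in leaf and root, was left out of these 84. On the scale of FPKM + 1 its log2 ratio was -1.59 for leaf over stem and for root over stem. Those of the CL9769 sum were -0.21 and -0.79, inside the 2-fold threshold. With cluster sums, the ratio of the whole cluster stood in for each of its unigenes, so that of CL5260 was entered for both its MCS unigenes. The 4 of the 84 that moved were entered for the low CL5260.Contig1. Those with cluster sums reflect mainly CL5260.Contig2. The root over stem ratio of CL5260.Contig1 itself was 1.05 with a pseudocount of 0.01 and 1.06 without one, so that 2 unigenes were then at least 2-fold higher in root than in stem. At a 1.5-fold threshold 2 were higher in leaf than in stem and 3 lower in root than in stem. At a 4-fold threshold 1 exceeded root in leaf and 0 were called in the other 5 counts. With cluster sums, 0 clusters were lower in leaf than in stem and 1 was lower in root than in stem, because the zeros of CL9769.Contig2 no longer enter. Cluster sums, for the step ratios chosen after seeing the data, gave MCS over CMS of 62.9 in root. The sum of CL10359 and CL9769 stood in for CMK there, and holds contigs that the study did not assign to CMK. MCS over that sum was 2.38 in leaf, against 13.5 in root and 3.54 in stem. That sum over CMS was 1.75 in leaf, against 4.64 in root and 2.53 in stem. With TPM, median-ratio and upper-quartile scaling all 6 counts and the 2 unigenes highest in leaf stayed the same in number. A window of 0.1 to 0.3 FPKM for the relative depth, chosen after seeing the data, gave 1.06 for root over leaf. No paired analysis was possible because each tissue has 1 library, and leaving out a library was not possible for the same reason. The number of fragments per value is not known, which limits most the unigenes near 1 FPKM.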
